A study of Mus musculus with 16 samples.

Results

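The cyclin-dependent kinase (CDK) inhibitors and the retinoblastoma family were followed in normal mouse brain and 3 kinds of induced brain tumour. The 10 genes were the INK4 inhibitors Cdkn2a, Cdkn2b, Cdkn2c and Cdkn2d, the CIP/KIP inhibitors Cdkn1a, Cdkn1b and Cdkn1c, and the pocket proteins Rb1, Rbl1 and Rbl2. A gene counted as measured where the array annotation gives a probe set its symbol alone. That held for 9 of the 10 genes, read by 10 probe sets, among 19938 genes measured in all. Cdkn1a, which encodes p21, shares its probe set with another symbol and is given no value. Cdkn1b has 2 probe sets, and its brighter one was used unless stated otherwise.

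The 4 groups had 4 Affymetrix arrays each, on total RNA. Control brain tissue was normal brain, wild type for Pdgfb, Trp53 and Rbpj. PDGF+p53-/- tumours were started in p53 floxed mice by a retrovirus that carries both Cre recombinase and PDGF-B, which drives division of glial precursors. PDGF+p53-/-RBPjk-/- tumours came from that retrovirus in mice whose RBPjk alleles, which encode the DNA-binding partner of Notch receptors, were floxed too. In p53-/-RBPjk-/- tumours there was no retrovirus and Pdgfb was wild type, and p53 and RBPjk were deleted by a Cre (Hes5::CreERT2) that works in Hes5+ cells, Hes5 being a marker of neural stem cells. All 3 tumour groups therefore share the loss of p53, for which the control is wild type. The sources used here give no strain or age. Tumours were dissected by a Cre-dependent GFP reporter once mice had symptoms, so a piece can hold host cells in which both floxed genes are intact. The labels number the arrays without stating separate animals, so p-values measure only the spread between these samples, which may be technical.

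As background, entry into the cell cycle is driven by D-type cyclins with CDK4 or CDK6 and then by cyclin E with CDK2. These kinases phosphorylate the pocket proteins, which otherwise bind E2F factors and hold S phase genes off. INK4 proteins bind CDK4 and CDK6 alone, whereas CIP/KIP proteins bind complexes of cyclin and CDK more broadly. Cdkn2a also encodes ARF, read from an upstream first exon, which frees p53 from Mdm2. Loss of the Cdkn2a and Cdkn2b locus and of RB1 is common in human glioblastoma, and p27 and p18 are known for their part in the cell cycle exit of glial and neuronal precursors.

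The array medians lay between 5.97 and 6.06 on the log2 scale, and arrays of a group correlated with r between 0.967 and 0.984. Rbpj read 7.55 to 7.88 in PDGF+p53-/-RBPjk-/- tumours and 7.64 to 7.93 in p53-/-RBPjk-/- tumours, below the 8.17 to 8.50 of PDGF+p53-/- tumours and in part within the control range of 7.76 to 8.21. Pdgfb read 5.81 to 6.31 in PDGF+p53-/- and 5.88 to 6.19 in PDGF+p53-/-RBPjk-/- tumours, overlapping the control range of 5.69 to 6.20, so its probe set does not show the labelled over-expression. Trp53 has no probe set of its own name and was not checked. Neuron markers, 8 of 8 of which were lower in each tumour group, averaged 10.56 to 10.60 in control arrays. They averaged 7.23 to 8.84, 6.86 to 8.39 and 6.26 to 7.76 in the tumour groups in the order above, highest in replicate 3 of each. All 6 oligodendrocyte precursor markers were higher in each tumour group, from 6.80 to 7.12 in control to between 8.46 and 9.55. A female pattern of sex-linked genes was present in 2 control arrays, 1 array of each PDGF group and all 4 arrays of p53-/-RBPjk-/- tumours. In tissue RNA, fewer cells of a type and less RNA per cell cannot be told apart.

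The tumour groups were first compared with control brain. In PDGF+p53-/- tumours 4 of the 9 measured genes rose and 0 fell, where 31.1% of all genes were called in either direction and 13.6% of all genes were higher. PDGF+p53-/-RBPjk-/- tumours had 5 higher and 0 lower, with 33.6% of all genes called and 15.7% of all genes higher. In p53-/-RBPjk-/- tumours 6 rose and 1 fell, with 36.8% of all genes called, 16.4% higher and 20.4% lower. Calls rest on limma with a Benjamini-Hochberg adjusted p under 0.05 over all 19938 genes. The median log2 difference of the 9 genes was 0.89, 1.03 and 0.62 in that order, beside -0.04, -0.03 and -0.02 over all genes. These 3 comparisons share the control arrays. Arrays of tumour and control did not overlap for 5, 4 and 6 of the 9 genes, against 30.0%, 34.5% and 34.4% of all genes. Cdkn2a, Cdkn2b, Cdkn2c and Rbl1 were above every control array in all 12 tumour arrays, whereas Rb1 was so in 0 of 12. The share of all genes above control in all 12 is not given here.

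**Figure D1:**
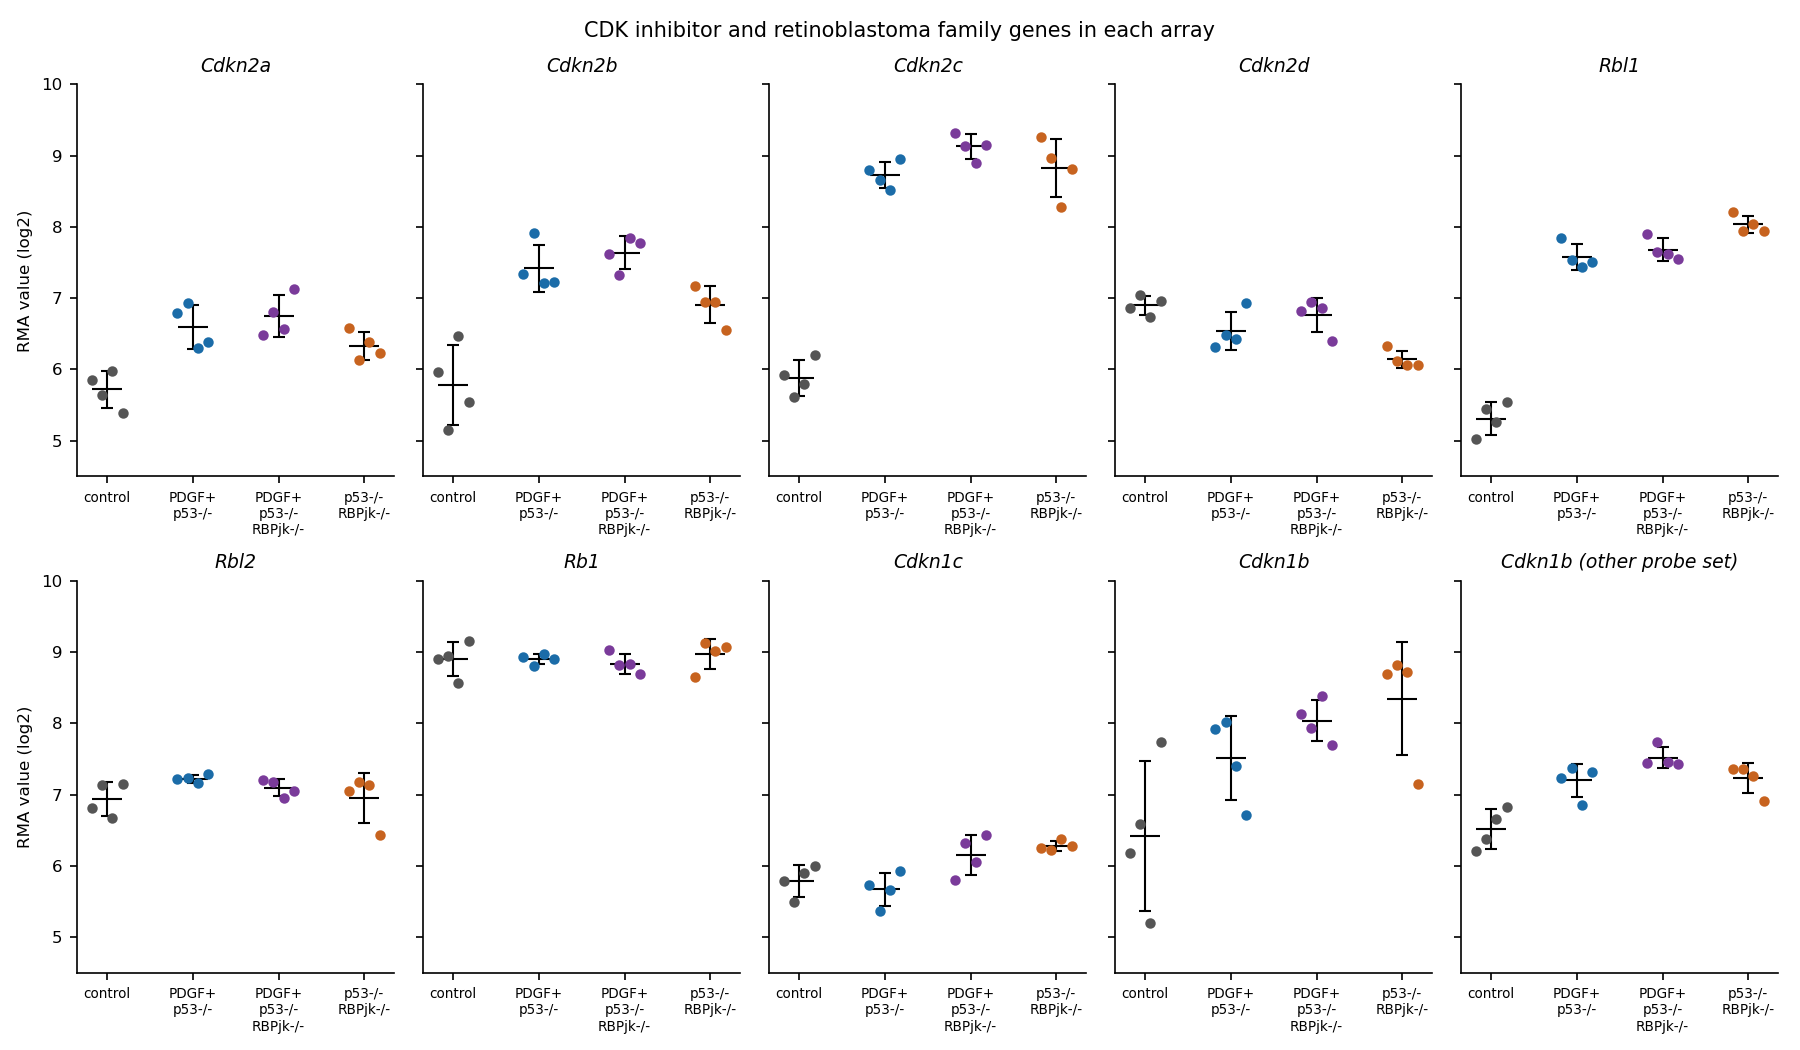
Log2 expression of each measured gene on each array, by group, for all 10 probe sets, with 1 point per array, a wide bar at the group mean and error bars of 1 SD (n = 4). The 12 tumour arrays lie above all 4 control arrays for Cdkn2a, Cdkn2b, Cdkn2c and Rbl1, and Rb1 overlaps in every group.

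Cdkn2c, which encodes the INK4 inhibitor p18, had the widest separation of the inhibitors. Its log2 values were 5.92, 5.61, 5.79 and 6.20 in control arrays and 8.80, 8.66, 8.52 and 8.95 in PDGF+p53-/- tumours. PDGF+p53-/-RBPjk-/- tumours read 9.32, 9.14, 8.89 and 9.15, and p53-/-RBPjk-/- tumours 9.26, 8.96, 8.28 and 8.82. Every tumour array was more than 2 units above every control array, and the tumour groups overlapped one another. Group means were highest in PDGF+p53-/-RBPjk-/- tumours, at 9.13 ± 0.17 (SD, n = 4), then 8.83 ± 0.41 in p53-/-RBPjk-/- and 8.73 ± 0.18 in PDGF+p53-/- tumours. The differences from control were 2.85 ± 0.18 (SE of the fit, 4 against 4 arrays), 3.25 ± 0.18 and 2.95 ± 0.18, or 7.23-fold, 9.48-fold and 7.73-fold. Adjusted p was 4.72e-09, 8.98e-10 and 1.91e-09 in limma.

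Cdkn2b encodes p15, an INK4 inhibitor that TGF-beta signalling is known to induce. Control arrays read 5.97, 5.15, 6.46 and 5.55, a wide spread (SD 0.56). The values were 7.34, 7.91, 7.21 and 7.23 in PDGF+p53-/- tumours, 7.62, 7.32, 7.85 and 7.77 in PDGF+p53-/-RBPjk-/- tumours and 7.17, 6.95, 6.94 and 6.56 in p53-/-RBPjk-/- tumours. All tumour arrays lay above the controls, with the lowest tumour array, at 6.56, close to the highest control at 6.46. Cdkn2b was 3.12-fold, 3.62-fold and 2.18-fold higher than control, as log2 differences of 1.64 ± 0.23, 1.86 ± 0.23 and 1.12 ± 0.23 (limma adjusted p 3.09e-05, 6.97e-06 and 0.000848). 

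Cdkn2a, which encodes p16 and ARF from separate first exons, rose less. Its values were 5.85, 5.64, 5.98 and 5.39 in control, 6.80, 6.94, 6.29 and 6.38 in PDGF+p53-/- tumours, 6.48, 6.81, 6.57 and 7.13 in PDGF+p53-/-RBPjk-/- tumours and 6.58, 6.13, 6.38 and 6.23 in p53-/-RBPjk-/- tumours. No tumour array reached down to the highest control array at 5.98. The log2 differences were 0.89 ± 0.18, 1.03 ± 0.18 and 0.62 ± 0.18, or 1.85-fold, 2.04-fold and 1.53-fold, with adjusted p of 0.000866, 0.000193 and 0.0109. Which of its transcripts the probes read is not given in the sources used here.

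Cdkn2d, which encodes p19, went the other way from the other INK4 genes. Control arrays read 6.86, 7.05, 6.74 and 6.96, and p53-/-RBPjk-/- tumours 6.32, 6.11, 6.06 and 6.06, with no overlap. The values were 6.32, 6.48, 6.43 and 6.93 in PDGF+p53-/- tumours and 6.81, 6.94, 6.87 and 6.40 in PDGF+p53-/-RBPjk-/- tumours, and both groups overlapped control. Cdkn2d fell 1.69-fold in p53-/-RBPjk-/- tumours, a log2 difference of -0.76 ± 0.15 (limma adjusted p 0.000413). In PDGF+p53-/- tumours the difference was -0.36 ± 0.15 with adjusted p 0.0709, and -0.48 with adjusted p 0.0175 when arrays were centred on housekeeping genes. It was -0.15 ± 0.15 in PDGF+p53-/-RBPjk-/- tumours, with adjusted p 0.503. The 2 control arrays with the female pattern read 6.86 and 6.96, and the p53-/-RBPjk-/- arrays, all of that pattern, 6.06 to 6.32. The neuron markers had their lowest group median, 6.70, in those tumours too, against 7.37 and 7.46 in the PDGF groups and 10.58 in control. Of the 8 neuron markers, 0 were called by limma in p53-/-RBPjk-/- tumours against PDGF+p53-/-RBPjk-/- or PDGF+p53-/- tumours, and 2 and 5 had an unadjusted p under 0.05. Of 7 microglia and macrophage markers, 5 fell and 1 rose against control in p53-/-RBPjk-/- tumours, whereas in PDGF+p53-/- tumours 1 rose and in PDGF+p53-/-RBPjk-/- tumours 0 were called, with an unadjusted p under 0.05 for 2 in each. Of 6 astrocyte markers, 5 were lower than control in every tumour group, and 1 and 3 were lower in p53-/-RBPjk-/- than in PDGF+p53-/-RBPjk-/- and PDGF+p53-/- tumours. The part of these cell types in the fall of Cdkn2d was not tested.

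Among the CIP/KIP inhibitors, Cdkn1b encodes p27, an inhibitor that is abundant in resting cells. Its brighter probe set read 6.17, 6.59, 5.19 and 7.74 in control, 7.92, 8.01, 7.40 and 6.72 in PDGF+p53-/- tumours, 8.14, 7.93, 8.39 and 7.70 in PDGF+p53-/-RBPjk-/- tumours and 8.70, 8.82, 8.72 and 7.15 in p53-/-RBPjk-/- tumours. The control arrays were scattered (SD 1.05) and each tumour group overlapped them through control replicate 4. The log2 differences were 1.09 ± 0.44 (adjusted p 0.0729), 1.62 ± 0.44 (0.00827) and 1.92 ± 0.44 (0.00203). The exact two-sided permutation test of the latter pair gave p = 0.0571 each. Without control replicate 4 the first difference was 1.53 with adjusted p 0.00859. 

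The other Cdkn1b probe set was less scattered. It read 6.20, 6.37, 6.66 and 6.83 in control, 7.23, 7.38, 6.86 and 7.32 in PDGF+p53-/- tumours, 7.44, 7.74, 7.45 and 7.42 in PDGF+p53-/-RBPjk-/- tumours and 7.36, 7.36, 7.27 and 6.92 in p53-/-RBPjk-/- tumours. All 12 tumour arrays lay above the controls, if by little in 2 of them. The differences were 0.68 ± 0.16, 1.0 ± 0.16 and 0.71 ± 0.16, with adjusted p of 0.00252, 7.02e-05 and 0.00138 in the limma fit of every probe set. Both probe sets were thus higher in tumours. They disagreed on size, on the order of the tumour groups and on whether PDGF+p53-/- tumours passed the threshold.

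Cdkn1c, an imprinted gene that encodes p57, rose in 1 of the 3 tumour groups. It read 5.79, 5.49, 5.90 and 6.0 in control and 6.24, 6.23, 6.38 and 6.28 in p53-/-RBPjk-/- tumours, which did not overlap. PDGF+p53-/- tumours read 5.73, 5.37, 5.67 and 5.93 and PDGF+p53-/-RBPjk-/- tumours 5.80, 6.32, 6.06 and 6.43. The difference was 0.49 ± 0.15 in p53-/-RBPjk-/- tumours, or 1.41-fold, with adjusted p 0.0162, and 0.39 with adjusted p 0.0646 without control replicate 2. It was -0.12 ± 0.15 (adjusted p 0.622) and 0.36 ± 0.15 (adjusted p 0.0816) in the PDGF groups in the order above, and 0.48 with adjusted p 0.0246 in the latter without its replicate 1.

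The pocket proteins parted. Rbl1, which encodes p107, a partner of repressive E2F factors that is itself an E2F target, read 5.02, 5.44, 5.26 and 5.54 in control. Tumour arrays read 7.85, 7.53, 7.44 and 7.51 with PDGF and p53 loss, 7.91, 7.64, 7.62 and 7.55 with PDGF and loss of both genes, and 8.20, 7.95, 8.05 and 7.94 in p53-/-RBPjk-/- tumours. The separation from control was complete, and the arrays within a group lay close together. The group means ran from 5.31 ± 0.23 (SD, n = 4) in control through 7.58 ± 0.18 and 7.68 ± 0.16 in the PDGF groups, which overlapped, to 8.04 ± 0.12 in p53-/-RBPjk-/- tumours. The differences were 2.27 ± 0.13, 2.36 ± 0.13 and 2.72 ± 0.13, or 4.81-fold, 5.15-fold and 6.59-fold, with adjusted p of 2.38e-09, 9.26e-10 and 1.8e-10.

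Rb1 and Rbl2, which encode pRB and p130, did not pass the test in any comparison. Rb1 read 8.91, 8.95, 8.57 and 9.15 in control, 8.93, 8.81, 8.97 and 8.91 in PDGF+p53-/- tumours, 9.04, 8.81, 8.83 and 8.69 in PDGF+p53-/-RBPjk-/- tumours and 8.66, 9.13, 9.01 and 9.07 in p53-/-RBPjk-/- tumours. Its 3 tumour means spanned 0.13, the narrowest of the 9 genes. Its differences from control were 0.01 (95% interval -0.27 to 0.30), -0.05 (-0.34 to 0.23) and 0.07 (-0.21 to 0.36), and their signs turned when single arrays were left out. 

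Rbl2, whose product p130 is the pocket protein of resting cells, read 6.81, 7.14, 6.67 and 7.14 in control and 7.22, 7.23, 7.16 and 7.28 in PDGF+p53-/- tumours. PDGF+p53-/-RBPjk-/- tumours read 7.21, 7.18, 6.95 and 7.05, and p53-/-RBPjk-/- tumours 7.05, 7.17, 7.14 and 6.43. The PDGF+p53-/- arrays lay just above all controls, by 0.28 ± 0.15 on average (95% interval -0.04 to 0.61, adjusted p 0.19, unadjusted exact two-sided permutation p 0.0286). The difference was 0.16 in PDGF+p53-/-RBPjk-/- tumours (adjusted p 0.491) and 0.01 in p53-/-RBPjk-/- tumours (adjusted p 0.974).

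**Figure D2:**
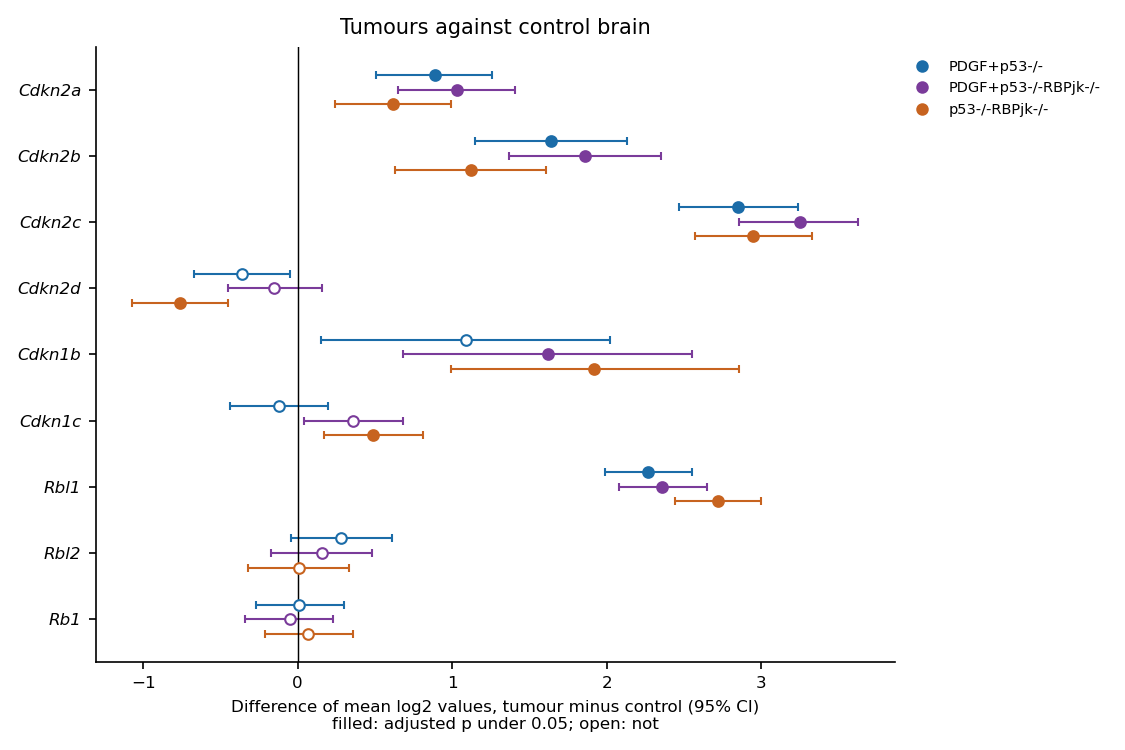
Log2 difference of each measured gene between each tumour group and control brain, with the 95% interval of the limma fit. Filled points passed the adjusted threshold, open points did not. Cdkn2c (2.85 to 3.25) and Rbl1 (2.27 to 2.72) stand apart to the right, Cdkn2d lies left of 0 and Rb1 lies at 0.

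In PDGF+p53-/- tumours, replicate 3 held the lowest value of 4 of the 5 genes that rose in at least 2 tumour groups, namely Cdkn1b, Cdkn2a, Cdkn2b, Cdkn2c and Rbl1. The neuron markers averaged 8.84 on that array, against 7.23 to 7.47 on the others of its group. In the other tumour groups replicate 3 had the highest neuron average too, 8.39 and 7.76, and held the lowest value of 1 of the 5 genes in each. Without PDGF+p53-/- replicate 3, 4 members again passed against control. The part of admixed brain in the size of these differences was not tested.

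The upstream sequences of Rbl1, Cdkn2c and Cdkn2a are shown because these genes rose in all 3 tumour groups and differ in the E2F-type letters near their starts. They are the 250 bases before the start, from RefSeq on GRCm38.p6. Capitals mark the E2F-type motif TTTNNCGC and the GC box GGGCGG, searched on both strands (CCGCCC is the GC box of the opposite strand).
Rbl1, chr2:157204535-157204784, minus strand: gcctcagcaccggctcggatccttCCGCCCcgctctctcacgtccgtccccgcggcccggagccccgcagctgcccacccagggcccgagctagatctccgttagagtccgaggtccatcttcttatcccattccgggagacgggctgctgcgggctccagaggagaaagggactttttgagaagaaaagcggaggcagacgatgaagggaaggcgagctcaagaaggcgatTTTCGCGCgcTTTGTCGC
Cdkn2c, upstream start, chr4:109666757-109667006, minus strand: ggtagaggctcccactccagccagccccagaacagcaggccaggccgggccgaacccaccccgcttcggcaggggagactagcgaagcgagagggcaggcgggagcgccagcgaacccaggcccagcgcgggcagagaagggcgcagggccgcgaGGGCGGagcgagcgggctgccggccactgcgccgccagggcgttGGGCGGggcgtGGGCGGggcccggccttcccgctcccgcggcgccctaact
Cdkn2a, upstream start, chr4:89294620-89294869, minus strand: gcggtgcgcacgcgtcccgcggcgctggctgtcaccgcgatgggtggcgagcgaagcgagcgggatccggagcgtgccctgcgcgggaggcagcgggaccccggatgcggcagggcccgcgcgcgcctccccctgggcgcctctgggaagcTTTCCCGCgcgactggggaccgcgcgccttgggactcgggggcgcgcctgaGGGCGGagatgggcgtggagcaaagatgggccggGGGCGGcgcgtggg
Promoter windows of 300 bases, 250 before and 50 after the start, were held for 8 of the 10 genes, with 11 windows. Rbl1 carries 2 E2F-type matches, whose first letters lie 18 and 8 bases before its start. Of all 32851 windows of that length, 5.17% hold at least 1 such match and 0.326% hold 2 or more. Cdkn2a has 1 match in each of its 2 windows, 99 bases before the upstream start and 244 before the downstream one. Neither window of Cdkn2c holds the letters, nor do those of Cdkn1a, Cdkn1b, Cdkn2b, Cdkn2d and Rbl2. The upstream Cdkn2c window holds 4 GC boxes, 1 of them after the start, and Cdkn2d holds 5, beside 19.5% of all windows with 2 or more. The motif TTTGAA, known from genes of the DREAM complex, occurs in the windows of Cdkn2b and Rbl2 and in 17.9% of all windows, and CCAAT occurs in 37.4%. A match is a run of letters and not a measured site, and no match says only that the letters are not in this window.

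The tumour groups were then compared with one another. RBPjk loss within the PDGF model changed 0 of the 9 genes, where 4 genes in all, or 0.0201%, were called. At an unadjusted p under 0.05, 2 of the 9 and 5.18% of all genes passed, and 0 passed the exact permutation test. Groups overlapped for all 9 genes, while 3.17% of all genes did not overlap. The 2 genes with an unadjusted p under 0.05 were Cdkn1c and Cdkn2c, both higher in PDGF+p53-/-RBPjk-/- tumours. Cdkn1c differed by 0.48 (95% interval 0.16 to 0.80, limma adjusted p 0.745) and Cdkn2c by 0.39 (0.01 to 0.77, adjusted p 0.946). The other Cdkn1b probe set was 0.32 ± 0.16 higher with no overlap (adjusted p 0.945, exact permutation p 0.0286). For Rbl1 the difference was 0.10 with an interval of -0.18 to 0.38. The median over the 9 genes was 0.22, beside 0.02 over all genes.

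Of the tumours that lack both p53 and RBPjk, those without the PDGF retrovirus had lower Cdkn2d. The 4 p53-/-RBPjk-/- arrays, at 6.06 to 6.32, lay below the 4 PDGF+p53-/-RBPjk-/- arrays, at 6.40 to 6.94. The difference was -0.61 ± 0.15, or 1.53-fold lower, with limma adjusted p 0.0282 and exact two-sided permutation p 0.0286, the smallest that 4 against 4 arrays can give. It was the only member called, or 1 of 9 where 3.27% of all genes were called and 2.63% were lower. Groups did not overlap for 3 of the 9 genes, against 9.69% of all genes. The others were Cdkn2b, with a difference of -0.74 ± 0.23 between group means of 6.91 and 7.64 (adjusted p 0.0975), and Rbl1, higher by 0.36 ± 0.13 (adjusted p 0.171). The other Cdkn1b probe set did not overlap either, with a difference of -0.29 ± 0.16 (adjusted p 0.381). The Cdkn1b probe set used had the opposite sign and overlapped, with a difference of 0.31 ± 0.44 (adjusted p 0.8).

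Against PDGF+p53-/- tumours, p53-/-RBPjk-/- tumours had higher Cdkn1c. Values of 6.23 to 6.38 stood above values of 5.37 to 5.93, a difference of 0.61 ± 0.15, or 1.53-fold, with limma adjusted p 0.025 and exact permutation p 0.0286. It was 1 of 9, where 5.54% of all genes were called and 1.93% were higher. Groups did not overlap for Cdkn1c, Cdkn2b and Rbl1, or 3 of 9, against 9.75% of all genes. Rbl1 was 0.46 ± 0.13 higher with adjusted p 0.0543, and 0.55 with adjusted p 0.0211 after centring on housekeeping genes. Cdkn2b had a difference of -0.52 ± 0.23 with adjusted p 0.231.

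Both calls were lost when a term for the sex pattern entered the fit. Cdkn2d then differed by -0.59 with adjusted p 0.193, and Cdkn1c by 0.56 with adjusted p 0.174. The single female-pattern array of PDGF+p53-/-RBPjk-/- tumours read 6.87 for Cdkn2d, above all p53-/-RBPjk-/- arrays, and that of PDGF+p53-/- tumours read 5.73 for Cdkn1c, below all of them. With centring on housekeeping genes the Cdkn2d difference was -0.48 with adjusted p 0.085. The retrovirus, the Cre driver and, against PDGF+p53-/- tumours, the RBPjk alleles change together here. The sex pattern changes with them in part, being female in all 4 p53-/-RBPjk-/- arrays and in 1 array of each PDGF group. These factors cannot be told apart, and 1 female-pattern array in a group cannot separate sex from the others.

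**Figure D3:**
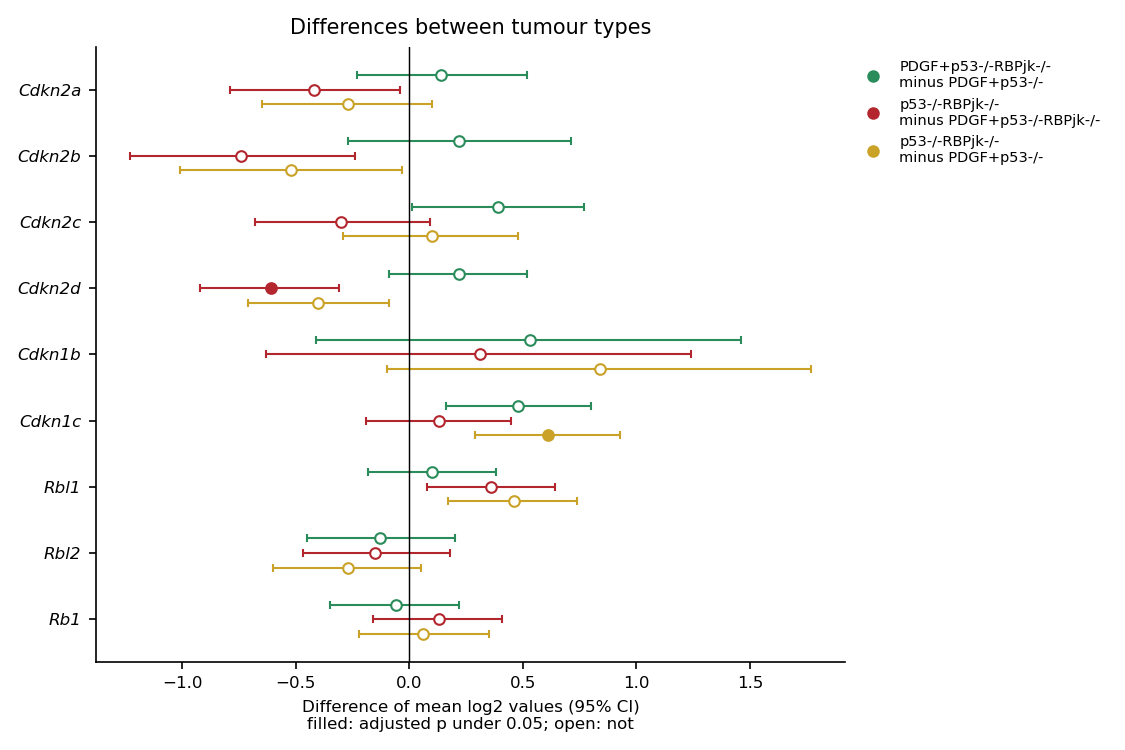
Log2 difference of each measured gene between pairs of tumour groups, with the 95% interval of the limma fit. Filled points passed the adjusted threshold. These are Cdkn2d at -0.61 between the tumours that lack both genes and Cdkn1c at 0.61 between p53-/-RBPjk-/- and PDGF+p53-/- tumours.

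Partners of the family and genes around them were read from lists of pathway genes. A list name is a label, and not every gene of a list is a direct partner. The counts of each list stand beside 31.1%, 33.6% and 36.8% of all genes called against control in the order above. Of 10 measured cyclins and CDKs bound by the inhibitors, 8, 8 and 7 rose against control in the order above and 0 fell, with medians of 1.98, 2.02 and 1.60. Cdk4, the kinase that INK4 proteins bind, differed by 2.23 ± 0.15, 2.35 ± 0.15 and 2.64 ± 0.15 (adjusted p 9.2e-09, 3.43e-09 and 8.66e-10). Ccnd1, which encodes cyclin D1, differed by 3.77, 3.86 and 2.82, and it was lower in p53-/-RBPjk-/- tumours than in either PDGF group, by -0.96 against PDGF+p53-/- (adjusted p 0.00723) and -1.04 against PDGF+p53-/-RBPjk-/- (adjusted p 0.007). The inhibitor Cdkn2c and its target kinase Cdk4 were therefore both higher in each tumour group.

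Downstream of the pocket proteins, 19 of 19 measured S phase genes that E2F drives rose in each tumour group, with medians of 2.01, 2.14 and 2.03. The ribonucleotide reductase subunit Rrm2 differed by 3.37, 3.82 and 3.11, and the replicative helicase subunit Mcm6 by 2.41, 2.48 and 2.69. All 19 measured mitotic genes rose as well, with medians of 3.12, 3.54 and 3.65. Top2a, the topoisomerase of dividing cells, differed by 4.80, 5.03 and 5.24. Rbl1 rose in each tumour group, as did every measured gene of both lists. Of 10 E2F and DP factors, 4, 5 and 6 rose and 1, 1 and 0 fell. The repressive factor E2f8 differed by 2.38, 2.68 and 2.90 and the activator E2f3 by 0.50, 0.66 and 0.93, all called. Among 8 genes listed for the MuvB and DREAM complexes 4, 4 and 4 rose and 0, 0 and 1 fell, and Foxm1 differed by 2.97, 3.17 and 3.09.

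Of 11 ubiquitin ligase parts listed for turnover of the inhibitors, 3, 4 and 4 rose and 1, 1 and 2 fell, beside 31.1%, 33.6% and 36.8% of all genes called. Skp2, the F-box protein that targets p27 for destruction, differed by 1.09 ± 0.15, 1.20 ± 0.15 and 1.38 ± 0.15, and its cofactor Cks1b by 2.88, 3.13 and 3.09. Fbxw7, in the list although it is known for targeting cyclin E and Myc, differed by -1.64, -1.79 and -1.70. Skp2 was called higher in all 3 tumour groups. Cdkn1b was called in the 2 that lack RBPjk by the probe set used, and in all 3 by its other probe set. Between the PDGF groups the probe set used differed by 0.53 (limma adjusted p 0.98). Protein was not measured.

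Of 18 regulators of the Ink4 locus, 7, 7 and 10 rose and 2, 2 and 1 fell. Ezh2 and Eed, parts of the Polycomb complex that silences the locus, differed by 1.96, 2.16 and 2.37 and by 0.84, 0.89 and 1.01. Ets1, an activator of p16, differed by 1.17, 1.04 and 1.29, and Ets2 by -0.99, -0.89 and -0.81. Of 11 transcription factors upstream of the CIP/KIP genes and Cdkn2b, 2 rose in each group and 0, 2 and 2 fell. Myc, which is known to repress Cdkn1a and Cdkn2b, differed by 3.05, 3.48 and 3.80. Of 18 genes of the p53 pathway other than Cdkn1a, 2, 1 and 5 rose and 3, 4 and 6 fell, with medians of 0.05, -0.04 and 0.02. The genes not called were 13, 13 and 7 of 18, beside 31.1%, 33.6% and 36.8% of all genes called. The share called was close to that of all genes in both PDGF groups and above it in p53-/-RBPjk-/- tumours. Among those that fell, Perp and Sesn1, targets of p53, differed by -0.91, -0.70 and -0.75 and by -0.53, -0.61 and -0.50. No gene of any of the 9 lists was called between the PDGF groups, where 4 of 19938 genes, or 0.0201%, were called and 1033 had an unadjusted p under 0.05 in limma. At that unadjusted threshold 1 gene of the ubiquitin ligase list, 1 mitotic gene and 0 of the other lists passed.

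**Figure D4:**
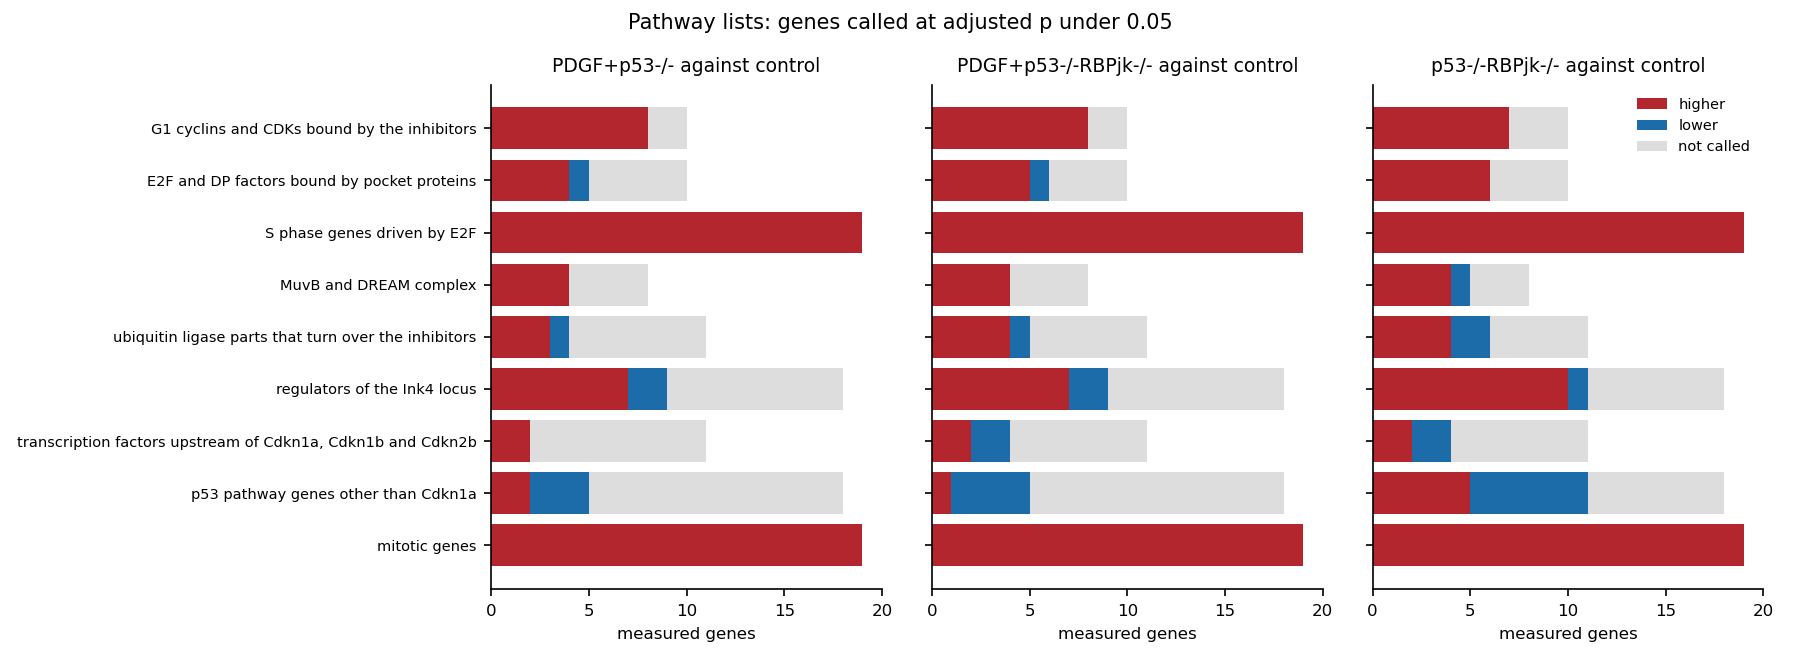
Number of measured genes of each pathway list that were higher, lower or not called against control brain, by tumour group. All 19 S phase genes and all 19 mitotic genes were higher in each group, while 13, 13 and 7 of the 18 genes of the p53 pathway list were not called.

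The neighbours of the Ink4 locus on mouse chromosome 4 were read because Cdkn2a and Cdkn2b are adjacent. Gene order came from the reference table, with genes that have no tested probe set left out. Mtap, an enzyme of methionine salvage next to Cdkn2a, rose by 1.96, 2.22 and 2.36 (adjusted p 5.54e-07, 1.23e-07 and 3.68e-08). Dmrta1, next to Cdkn2b on the other side, rose by 1.49, 1.59 and 1.23 (adjusted p 0.00113, 0.000582 and 0.00395). Further out, Ifne and Zfp352 did not pass in any of the 3 comparisons, Mir31 differed by -0.53, -0.39 and -0.17 and passed in PDGF+p53-/- tumours alone (adjusted p 0.0478), and Elavl2, a neuronal RNA-binding protein, fell by 1.47, 1.09 and 1.34 on the log2 scale. The 4 successive measured genes from Mtap to Dmrta1 were therefore all higher in each tumour group. Across the family, 48 neighbours with a tested probe set gave 15, 16 and 13 higher and 9, 7 and 10 lower, where 31.1%, 33.6% and 36.8% of all genes were called and 13.6%, 15.7% and 16.4% were higher.

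**Figure D5:**
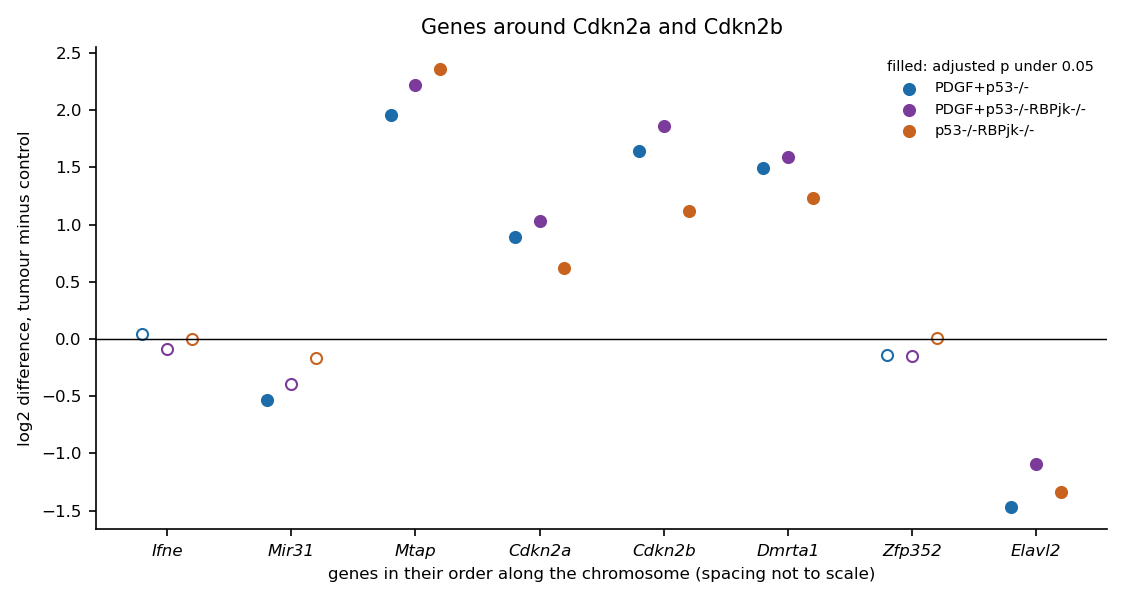
Log2 difference from control brain for the measured genes around Cdkn2a and Cdkn2b in their order on the chromosome, by tumour group, 1 point per group, with spacing not to scale. Filled points passed the adjusted threshold, open points did not. Mtap, Cdkn2a, Cdkn2b and Dmrta1 lie above 0 in all groups, and Elavl2 lies below.

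The genes whose levels ran most like each member were listed by Pearson's r, as a description over arrays that share their groups. Over all 16 arrays Rbl1 was nearest to Prim1 (r 0.994), Cenpi and Knl1 (both 0.993), and Cdkn2c to Nuf2 (0.993), Mki67 (0.990) and Ckap2l (0.989). Prim1 is a primase subunit, and Cenpi, Knl1 and Nuf2 are parts of the kinetochore. Over the 12 tumour arrays alone, which leave out the step from control to tumour, Rbl1 was nearest to Cks2 (0.953), Mcm8 (0.934) and Cenpk (0.923). Cdkn2c was then nearest to Lage3 (0.889), Gen1 (0.879) and Ncapg2 (0.858). Cdkn2b stood with Ankrd49 (0.921) over 16 arrays and with Srxn1 (0.931) over 12, and Cdkn2a with Pld1 (0.930) over 16. Cdkn2d was nearest to Ptgr2 over both, with r 0.951 and 0.949. Rb1 and Rbl2 had the weakest likeness over 16 arrays, at most 0.718 with Hcrtr1 and 0.797 with Txndc16. Over the 12 tumour arrays Rb1 reached 0.901 with Nepn and Rbl2 0.885 with Clcn3. Cdkn2a reached 0.866 with Fpgt and 0.865 with the olfactory receptor gene Olfr665. The highest value of Cdkn2c over these arrays, 0.889, was thus below that of Rb1.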

How the data were processed

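Total RNA of 16 samples in 4 groups was measured on single-colour arrays. The authors deposited log2 values of 35556 probe sets. Per the submitters' processing notes these came from RMA and the package oligo, with no version, and the build is not given in the sources used here. RMA gives all arrays 1 distribution, which hides any change in total RNA per cell, and folds can be compressed. The values were used as deposited. Of 21789 probe sets with 1 symbol, the one with the highest mean was kept for each of 19938 genes, which drops others of 999 genes.

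Groups were taken from the labels. All 16 arrays entered 1 fit in limma 3.58.1 (R 4.3.3, lmFit and eBayes), and 6 comparisons were tested two-sided with Benjamini-Hochberg adjustment over all genes. Recovery of set changes was tested on simulated data. Exact permutation tests of 4 against 4 arrays cannot go below p = 0.0286. The number of arrays limits the precision.

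The members and lists were chosen with earlier results of these data known. The text names every member, up to 4 genes of each pathway list with the largest mean difference from control, up to 3 neighbours on each side and the 3 genes of highest r, of which a part is printed. Alternatives were other uses of probe sets, a dim filter, limma's trend and robust settings, array weights, housekeeping centring, 2 groups per fit, the replicate block, a sex term and leaving out each array. Sequences came from RefSeq tables of GRCm38.p6. Python 3.11.15, numpy 2.4.6, pandas 2.3.3, scipy 1.17.1 and matplotlib 3.10.9 were used.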

Additional observations from a re-analysis of the deposited data

Results flagged for a closer look

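Among 40 groups of 4 arrays, 1 array stood far from the other 3 in 3 of them, where chance gives about 1 in 20. The brighter Cdkn1b probe set read 7.15 in replicate 4 of p53-/-RBPjk-/- tumours, against a median of 8.72 on the others. Rbl2 was low on the same array, at 6.43 against 7.14. The other Cdkn1b probe set read 7.74 in replicate 2 of PDGF+p53-/-RBPjk-/- tumours, against 7.44.

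The difference from control was not the same in every tumour group for 2 genes. Cdkn2d differed by -0.61 between p53-/-RBPjk-/- and PDGF+p53-/-RBPjk-/- tumours, by limma's test of the difference (adjusted p 0.0282). Cdkn1c differed by 0.61 between p53-/-RBPjk-/- and PDGF+p53-/- tumours (adjusted p 0.025).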

How the results depend on the processing

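Of 18 called differences of single members, 15 kept their direction and their side of the threshold under all 25 alternative fits, and 0 turned sign. The calls lost were Cdkn2d between the tumours lacking both genes (9 of 25), Cdkn1c between p53-/-RBPjk-/- and PDGF+p53-/- tumours (6 of 25) and Cdkn1c between p53-/-RBPjk-/- tumours and control (without control replicate 2). The Cdkn2d adjusted p was 0.0536 with only 2 groups in the fit, where Cdkn2b passed in its place (0.0489), and 0.0587 to 0.103 without PDGF+p53-/-RBPjk-/- replicate 1, 2 or 3 or p53-/-RBPjk-/- replicate 2, 3 or 4. That of Cdkn1c was 0.0546 with only 2 groups in the fit and 0.0532 to 0.0895 without PDGF+p53-/- replicate 2 or 3 or p53-/-RBPjk-/- replicate 3 or 4. Against 1 member called between the tumours lacking both genes, array weights gave 2 (Cdkn2b added, adjusted p 0.0332), housekeeping centring 0, the sex term 0 and leaving out 1 array 0 to 1. Against 1 between p53-/-RBPjk-/- and PDGF+p53-/- tumours, dropping dim genes gave 2, housekeeping centring 2 (Rbl1 added), 2 groups per fit 0, the sex term 0 and leaving out 1 array 0 to 2. Over all genes, the sex term left 61 of 651 and 183 of 1105 calls in number, 2 groups per fit 395 and 289, and array weights gave 1197 in the former. Leaving out 1 array gave 176 to 802 and 553 to 1323. Against control, leaving out 1 array gave 4 to 6, 5 to 6 and 6 to 7 members. Over all genes it gave 5262 to 6287, 5851 to 6757 and 6728 to 7403 calls. Cdkn1b in PDGF+p53-/- tumours gained a call with the mean of its probe sets (0.88, limma adjusted p 0.0158) and with the sex term (1.27, adjusted p 0.0297). It also did so without replicate 4 of control, PDGF+p53-/- or p53-/-RBPjk-/- tumours (adjusted p 0.00859, 0.0373 and 0.0422). Cdkn2d in PDGF+p53-/- tumours gained a call with array weights (adjusted p 0.0429) and housekeeping centring (0.0175). Leaving out replicate 4 of PDGF+p53-/- (0.0123) or of PDGF+p53-/-RBPjk-/- tumours (0.0478) did the same. Signs also turned for values no further than 0.15 from 0, and for Cdkn1b (0.31). Rb1 became -0.11 in PDGF+p53-/- tumours under housekeeping centring and -0.02 between p53-/-RBPjk-/- and PDGF+p53-/- tumours with the sex term. Rbl2 became -0.01 in p53-/-RBPjk-/- tumours under housekeeping centring, and Cdkn1b -0.24 between the tumours lacking both genes with the sex term. With 1 array left out, Rb1 against control ran from -0.1 to 0.1, -0.16 to 0.03 and -0.04 to 0.18 in the order above, Rbl2 from -0.08 to 0.18 in p53-/-RBPjk-/- tumours and from -0.22 to 0.02 between the tumours lacking both genes, and Cdkn2c from -0.05 to 0.28 between p53-/-RBPjk-/- and PDGF+p53-/- tumours. All 9 members passed the dim filter. The cause of these changes was not tested. Centring on 9 housekeeping genes moved all differences by their mean, 0.116, 0.154 and 0.0238 against control and -0.13 between the tumours lacking both genes.

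With the replicate number as a block the members called were 4, 5 and 7 against control, 0 between the PDGF groups, 1 between the tumours lacking both genes and 1 between p53-/-RBPjk-/- and PDGF+p53-/- tumours, and no member's call changed. Over all genes the block gave 6232, 6641, 7321, 2, 682 and 1150 calls in that order. Same-numbered arrays correlated between -0.121 and 0.182 in their deviations, over 0.1 in 7 of 24 pairs, and an array was nearest to its own number in 20 of 48 tries. As not every pair was over 0.1 the numbers were not taken to pair the samples. The replicate 3 arrays of the tumour groups correlated at 0.176, 0.169 and 0.156. The labels do not say whether same-numbered arrays share a source.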

Other observations

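Other neighbours of the members, again among genes with a tested probe set, moved in part. Samhd1, next to Rbl1 and known for the breakdown of dNTPs, differed from control by 1.17, 1.10 and 1.23 (adjusted p 0.0003, 0.000468 and 0.000131) in PDGF+p53-/-, PDGF+p53-/-RBPjk-/- and p53-/-RBPjk-/- tumours. Lpar6, a lysophosphatidic acid receptor gene listed near Rb1, differed by 1.04, 0.79 and 0.75, while Rb1 did not pass the test. Neighbours were ordered by their start alone, so a gene that lies within a member would be listed too. Crebl2, near Cdkn1b, differed by -0.69, -0.73 and -0.74 (adjusted p 6.82e-05, 3.17e-05 and 2.09e-05). On the same side of Cdkn1b, Dusp16 differed by 0.73, 0.69 and 0.85, all called, and the adjacent Gpr19 by 0.49 and 0.59, both called, and by 0.28 (adjusted p 0.172). On either side of Cdkn2c, 9630013D21Rik differed by 1.12, 1.34 and 1.17 (adjusted p 0.000255, 3.92e-05 and 0.000118) and Faf1 by 0.09, 0.23 and 0.39, of which the last passed (adjusted p 0.0129).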
